A study of Mus musculus with 6 samples.

Results

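Chromatin is opened, closed and marked by a shared set of enzymes, and 43 of their genes are described here. The samples are labelled as CD4+CD25+ T cells, with or without a Foxp3-directed deletion of Hdac3. The cell type is taken from the labels, and the cell type markers given below differ strongly between the groups. The genes were taken by name, without the histone deacetylases, and sorted by role into acetyltransferases, bromodomain readers, Polycomb proteins, histone demethylases, proteins of H3K9 methylation and heterochromatin, DNA methylation proteins, the NuRD complex, and SWI/SNF and ISWI remodellers. Of the 43 genes, 38 had a probe set annotated to that symbol alone, out of 12393 such genes on the array, and Ep300, Kat5, Suv39h1, Kdm4a and Kdm6b were not analysed here. The samples were 3 labelled HDAC3, from C57BL6 mice with HDAC3-fl/fl and FOXP3cre, and 3 wild type C57BL6 samples, each hybridised to 1 Affymetrix Mouse430a array. The Cre is named for Foxp3, so deletion is directed to Foxp3-expressing cells. The genotype label of the wild type samples names neither a floxed allele nor a Cre. The labels give no age and do not say whether each sample came from a different animal. The p-values therefore reflect the variation among these 6 samples, part or all of which may be technical. Values are log2 expression, means are given ± SD with n = 3, and differences are Hdac3 deleted minus wild type.

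Histone acetyltransferases place the acetyl groups that Hdac3 and the other deacetylases remove, and bromodomain proteins bind them. Polycomb repressive complex 2 methylates histone H3 through Ezh1 or Ezh2, and Polycomb repressive complex 1 ubiquitinates histone H2A through Ring1 or Rnf2. Dnmt1 copies DNA methylation onto newly replicated DNA, while Dnmt3a and Dnmt3b can place it anew. NuRD and SWI/SNF move nucleosomes with the energy of ATP, and NuRD also carries deacetylases. In regulatory T cells, Foxp3 works together with several of these complexes, Ezh2 among them.

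The groups of samples differed in far more than chromatin genes. The targeted gene measured 8.46, 8.51 and 8.50 in the Hdac3 deleted samples and 9.07, 9.04 and 9.01 in the wild type samples. The files do not place the probe set relative to the deleted exons. The title and genotype of the Hdac3 deleted samples say HDAC3, but their source name says HDAC11. All 19 macrophage markers and all 14 neutrophil markers measured were higher in Hdac3 deleted samples, and 10 macrophage and 9 neutrophil markers were no brighter in wild type than bacterial control probe sets. Summed on the linear scale, the macrophage markers reached 118907 to 122632 in Hdac3 deleted samples and 1017 to 1094 in wild type, and the neutrophil markers 41736 to 42635 in Hdac3 deleted samples and 398 to 530.2 in wild type. The summed B cell markers were 427 to 479 in Hdac3 deleted samples and 298 to 336 in wild type, and 6 of the 8 were no brighter than the control probe sets in either group. The 4 CD3 genes summed to 8347 to 8491 in Hdac3 deleted samples and 21201 to 22650 in wild type, with a mean log2 difference of -1.47. Of 27 cell cycle genes 25 rose and 1 fell, with a median difference of 1.5. Among the defining markers of regulatory T cells, Foxp3 was no brighter than the control probe sets, at 3.68 ± 0.15 in Hdac3 deleted samples and 3.77 ± 0.29 in wild type, Il2ra was 0.71 higher, and Ctla4 differed by 0.07 (limma adjusted p = 0.401). Cd4 and Ikzf2 were lower by 1.02 and 1.58 on the log2 scale. The part of these other genes in the values that follow was not tested. Fewer cells of a type and less RNA per cell cannot be told apart in pooled RNA.

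In Hdac3 deleted samples 8 of the 38 chromatin genes rose and 19 fell at a limma adjusted p below 0.05 over all genes, and 11 did not pass. The 27 that passed stand beside 61.2% of all genes. The shares that rose and fell, 21.1% and 50% of the 38, stand beside 22.4% of all genes called higher and 38.8% called lower. All genes include 3553 no brighter than bacterial control probe sets in either group, and the 38 include none. With the dimmest 33.3% of probe sets left out, the 38 kept 8 rises and 19 falls. Of the 8783 genes then tested, 2662 were called higher and 4120 lower. The changes were small. On the brightest probe set of each gene, only Kdm5b, an eraser of the methyl mark of active promoters, differed by at least 2-fold. Dimmer probe sets of Smarce1 and Rbbp4 fell by 1.21 and 1.14. Past 2-fold were 13.5% of all genes in either direction and 4.46% lower. Of the 38, 34 differed by less than 1.5-fold. Past the threshold and 1.5-fold were 1 rise and 3 falls, against 27.3% of all genes in either direction. The groups did not overlap in 29 of the 38 genes, against 67.4% of all genes. The median difference was -0.14 over the chromatin genes and -0.17 over all genes, and 20 of the 38 lay above the median of all genes. None of the 38 fell as far as the mean of the CD3 genes. All 38 were above the background range, which bacterial control probe sets placed at 2.37 to 5.16, in every sample, from 6.10 in Cbx3 to 11.92 in Rbbp4.

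**Figure D1:**
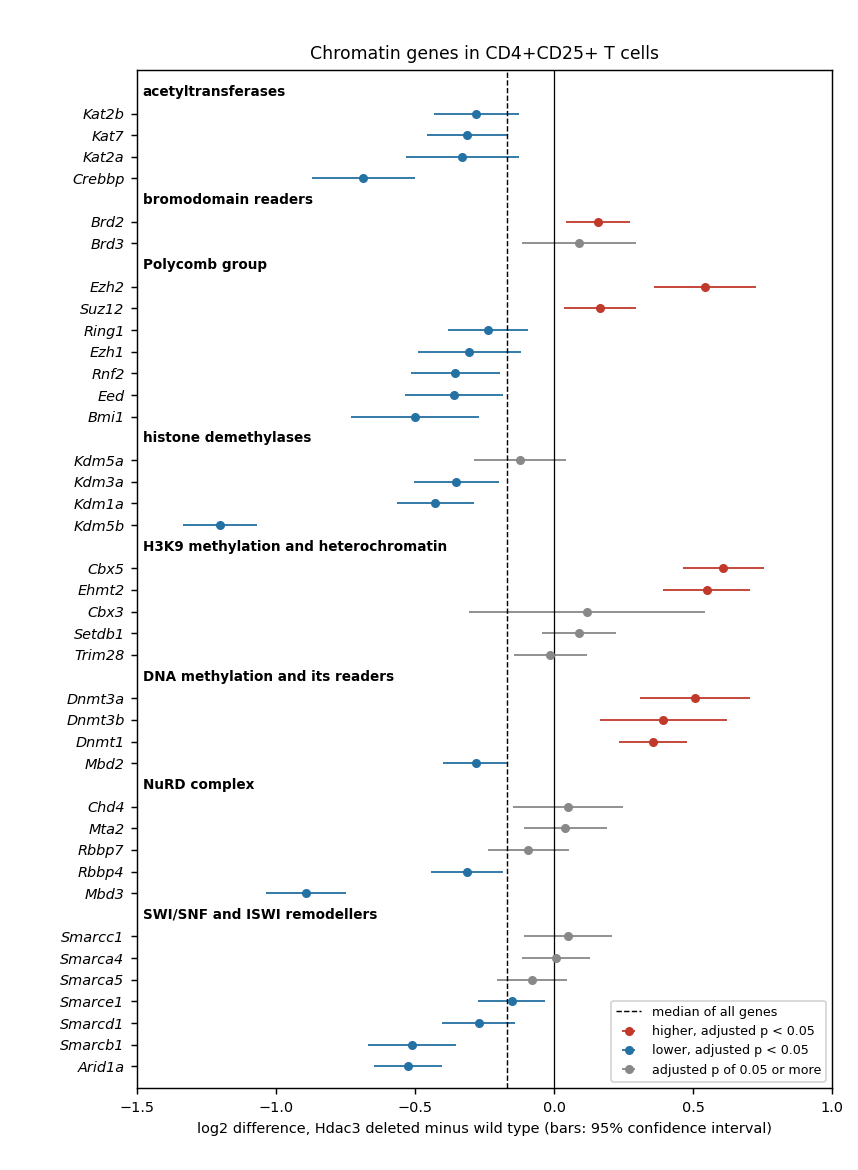
Log2 difference of each of the 38 measured chromatin genes, Hdac3 deleted minus wild type, by role group. Points are limma estimates, bars their 95% confidence intervals, and the dashed line is the median of all genes at -0.17. Most points lie within 0.6 of 0, with Kdm5b at -1.20 and Mbd3 at -0.89 apart on the left.

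How the arrays are scaled moved the median of all genes by more than 0.1, so the balance of rises and falls has no settled value. The deposited values gave 8 rises and 19 falls, so 29.6% of the called chromatin genes were higher, beside 36.6% of all called genes. Median centring moved the median of all genes to -0.33 and gave 5 rises and 24 falls, or 17.2% higher, beside 23.3% of all called genes. Cyclic loess moved that median to 0.0015 and gave 15 rises and 7 falls, or 68.2% higher, beside 56.1%. Under all 3 scalings 12 of the chromatin genes passed in the same direction, and the share of all genes that did so was not counted. Ezh2, Ehmt2, Cbx5, Dnmt1 and Dnmt3a were higher, and Crebbp, Bmi1, Kdm1a, Kdm5b, Mbd3, Smarcb1 and Arid1a were lower. Median centring also put Mbd3 past 2-fold.

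**Figure D2:**
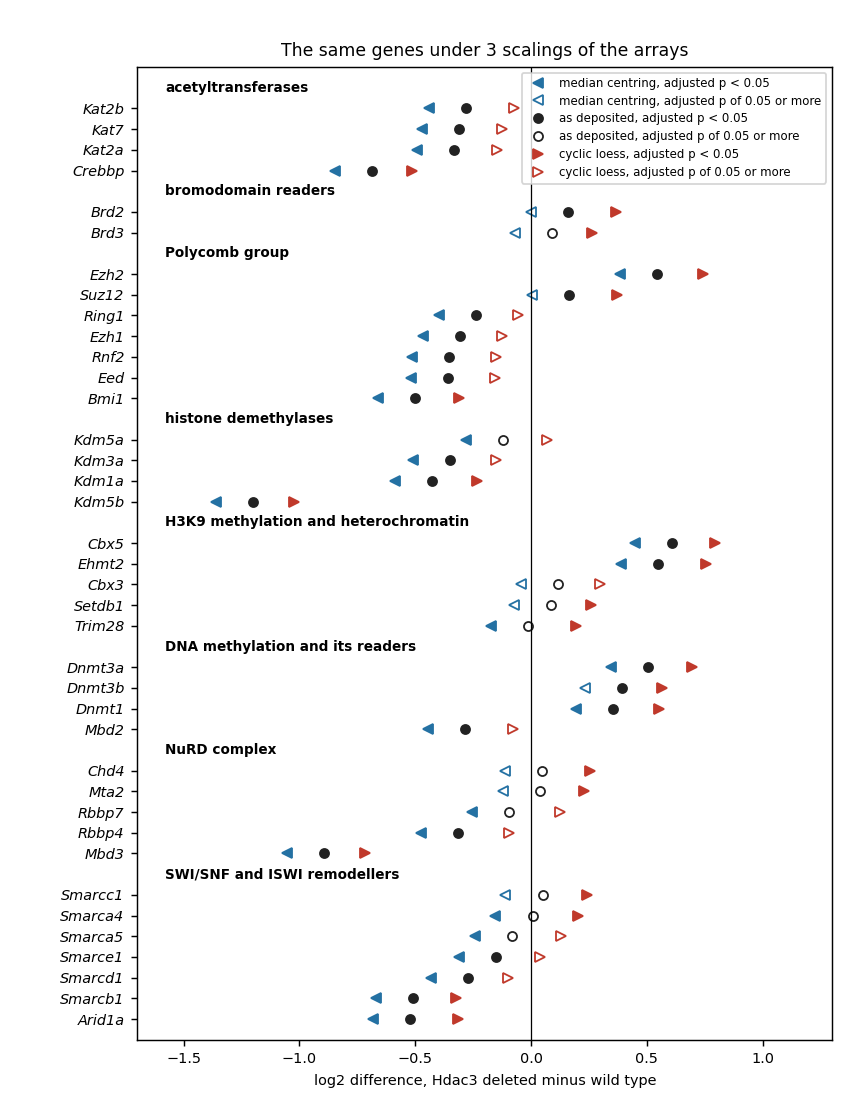
Log2 difference of the same 38 genes, Hdac3 deleted minus wild type, with each array centred on its median, as deposited, and after cyclic loess. Filled marks are at an adjusted p below 0.05. Each gene moves right from median centring to cyclic loess, and 12 genes keep filled marks on the same side of 0 in all 3.

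The promoters of the 3 genes with the largest rises (Cbx5, Ehmt2, Ezh2) and the 3 with the largest falls (Kdm5b, Mbd3, Crebbp) are shown to set the sequences of genes that moved in opposite directions side by side. They come from RefSeq (GRCm38.p6), run from 250 bases before to 50 bases after the most upstream listed start, and are written 5′ to 3′ on the strand of the gene, with matches to the searched motifs in capitals. A promoter was listed for 35 of the 38 genes. A listed start need not be the 5′ end of the annotated gene. The Crebbp window lies wholly inside its minus strand gene, whose span ends at 4213957. Most of the Ezh2 window lies inside its gene, whose span ends at 47595270.
Cbx5, chr15:103239803-103240102, minus strand: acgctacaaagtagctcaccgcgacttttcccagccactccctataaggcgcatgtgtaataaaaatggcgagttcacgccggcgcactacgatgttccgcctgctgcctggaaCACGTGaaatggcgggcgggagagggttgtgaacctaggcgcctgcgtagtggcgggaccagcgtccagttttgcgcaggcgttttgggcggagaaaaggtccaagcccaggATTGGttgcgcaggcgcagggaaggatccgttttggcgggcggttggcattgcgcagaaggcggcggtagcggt
Ehmt2, chr17:34898224-34898523, plus strand: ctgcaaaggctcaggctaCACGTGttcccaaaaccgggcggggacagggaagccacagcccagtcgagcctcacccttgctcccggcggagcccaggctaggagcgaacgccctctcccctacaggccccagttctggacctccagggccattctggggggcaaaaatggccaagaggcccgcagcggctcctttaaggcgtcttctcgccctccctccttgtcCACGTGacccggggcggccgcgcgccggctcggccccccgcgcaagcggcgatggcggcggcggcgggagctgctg
Ezh2, chr6:47594981-47595280, minus strand: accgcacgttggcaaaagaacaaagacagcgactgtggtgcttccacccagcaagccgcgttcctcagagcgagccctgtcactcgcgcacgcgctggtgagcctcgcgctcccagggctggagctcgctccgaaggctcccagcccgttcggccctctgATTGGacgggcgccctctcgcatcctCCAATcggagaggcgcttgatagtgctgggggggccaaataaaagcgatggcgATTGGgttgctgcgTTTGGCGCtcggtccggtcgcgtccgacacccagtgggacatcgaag
Kdm5b, chr1:134559928-134560227, plus strand: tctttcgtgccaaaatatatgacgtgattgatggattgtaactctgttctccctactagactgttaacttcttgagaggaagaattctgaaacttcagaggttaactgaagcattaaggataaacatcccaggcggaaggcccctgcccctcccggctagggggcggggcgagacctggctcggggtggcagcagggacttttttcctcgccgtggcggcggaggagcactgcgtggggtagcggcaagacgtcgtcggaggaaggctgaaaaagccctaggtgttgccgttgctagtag
Mbd3, chr10:80399482-80399781, minus strand: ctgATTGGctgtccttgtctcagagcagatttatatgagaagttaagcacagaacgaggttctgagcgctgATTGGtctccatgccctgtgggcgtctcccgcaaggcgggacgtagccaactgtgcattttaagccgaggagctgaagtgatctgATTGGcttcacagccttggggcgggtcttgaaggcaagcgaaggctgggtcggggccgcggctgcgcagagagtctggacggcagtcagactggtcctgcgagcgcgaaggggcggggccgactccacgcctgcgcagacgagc
Crebbp, chr16:4213355-4213654, minus strand: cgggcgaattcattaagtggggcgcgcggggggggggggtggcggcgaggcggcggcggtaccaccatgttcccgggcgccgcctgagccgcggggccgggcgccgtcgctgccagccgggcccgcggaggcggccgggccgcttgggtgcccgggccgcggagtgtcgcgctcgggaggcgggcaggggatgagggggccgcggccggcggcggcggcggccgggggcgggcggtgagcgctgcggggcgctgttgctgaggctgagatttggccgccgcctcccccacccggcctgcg

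The motifs were searched on both strands, and no match in these 6 promoters overlapped another. An E2F site of the letters TTTGGCGC was found in 0.91% of 9887 promoters of measured genes and in 2 of the 35 chromatin gene promoters, those of Ezh2 and Cbx3. The E2F site TTTCCCGC was in 1.8% of promoters and in those of Suz12 and Smarcd1. The CCAAT box, searched as CCAAT, was in 38.3% of promoters and in 14 of the 35, among them Ezh2, Mbd3 and Cbx5. The E-box CACGTG was in 9.35% of promoters and in those of Bmi1, Cbx5, Ehmt2 and Rbbp4. The ETS site CCGGAAGT was in 6.71% of promoters and in those of Kat7 and Mta2, and the palindromic core of the NRF1 motif in 1.61% and in that of Brd2. None of these motifs was in the windows of Kdm5b or Crebbp. The GC content of the 6 windows was lowest in Kdm5b, at 54.7%, and highest in Crebbp, at 82%, beside a median of 59.3% over the promoters of measured genes.

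All 4 acetyltransferase genes measured among the 38 fell in Hdac3 deleted samples, beside 38.8% of all genes. Crebbp encodes CBP, a coactivator acetyltransferase that many transcription factors recruit. It measured 7.62, 7.67 and 7.41 in Hdac3 deleted samples, against 8.25, 8.24 and 8.27 in wild type. Every Hdac3 deleted value lay below every wild type value, and the difference was -0.69 (SE 0.078, limma adjusted p = 0.000233), or 1.61-fold lower. Kat2a, which encodes the GCN5 catalytic subunit of the SAGA coactivator, measured 8.39, 8.61 and 8.32 in Hdac3 deleted samples, against 8.72, 8.77 and 8.82 in wild type. The groups did not overlap, and the difference was -0.33 (adjusted p = 0.0133). A dimmer Kat2a probe set fell by 0.35, while another differed by 0.27 (adjusted p = 0.0731 over all probe sets). The mean of the Kat2a probe sets did not pass (-0.14, adjusted p = 0.0664). The Kat2a paralogue Kat2b (PCAF) differed by -0.28 (adjusted p = 0.00794). Kat7, which acetylates histone H3 and H4 near replication origins, differed by -0.31 (adjusted p = 0.00376). Kat2a, Kat2b and Kat7 lay 0.16 or less below the median of all genes, and after cyclic loess they no longer passed (-0.15, -0.08 and -0.13). Crebbp passed there too, at -0.51. On the deposited scale 10.5% of all genes had a lower difference than Crebbp.

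Both genes sorted into the bromodomain reader group, Brd2 and Brd3, differed little on the deposited scale. Brd2, a reader of acetylated histones, measured 10.53, 10.57 and 10.56 in Hdac3 deleted samples and 10.39, 10.40 and 10.40 in wild type. Its groups did not overlap and it rose by 0.16 (adjusted p = 0.0265), but the difference was -0.0021 with median centring and 0.37 past the threshold after cyclic loess. It did not pass when any 1 of the 6 samples was left out (adjusted p 0.0528 to 0.0736). Its dimmer probe set differed by -0.02. Its relative Brd3 had overlapping groups and differed by 0.09 (95% confidence interval -0.12 to 0.29, adjusted p = 0.397), by -0.07 with median centring, and by 0.26 past the threshold after cyclic loess.

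Genes of the Polycomb complexes split. The catalytic subunit gene Ezh2 measured 9.74, 9.86 and 9.72 in Hdac3 deleted samples, against 9.10, 9.27 and 9.32 in wild type. All Hdac3 deleted values were higher, and Ezh2 rose by 0.54 (SE 0.077, adjusted p = 0.000742), or 1.46-fold. Ezh1, the alternative catalytic subunit that predominates in resting cells, averaged 8.22 ± 0.14 in Hdac3 deleted samples and 8.52 ± 0.017 in wild type, and fell by 0.31 (adjusted p = 0.0121), which lay 0.14 below the median of all genes and did not pass after cyclic loess (-0.13). The difference between the paralogues themselves, Ezh2 minus Ezh1, changed by 0.85 between the groups, with no overlap of the 3 Hdac3 deleted and 3 wild type values (2-sided exact permutation p = 0.1, the smallest that 3 against 3 allows). In the same samples 25 of 27 cell cycle genes rose. The proliferation marker Mki67 was 10.46 ± 0.046 in Hdac3 deleted samples and 8.03 ± 0.026 in wild type, and the part of cell cycling in the Ezh2 rise was not tested.

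The noncatalytic subunits Eed and Suz12 of Polycomb repressive complex 2 differed in direction. Eed, which binds the methyl mark and stimulates the enzyme, measured 9.74, 9.85 and 9.66 in Hdac3 deleted samples and 10.03, 10.10 and 10.20 in wild type. It fell by 0.36 without overlap (adjusted p = 0.00473), and did not pass after cyclic loess (-0.16). Suz12, the scaffold subunit, measured 10.21, 10.27 and 10.25 in Hdac3 deleted samples and 10.08, 10.13 and 10.03 in wild type, a rise of 0.17 (adjusted p = 0.034). This rise was 0.0054 with median centring and 0.37 past the threshold after cyclic loess. On the deposited scale it passed in only 1 of the 6 fits with a sample left out, the one without wild type replicate 2 (adjusted p 0.0418 to 0.0922 over the 6), and was not shared by all 6 of its probe sets, whose differences ran from -0.12 to 0.25.

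All 3 genes of Polycomb repressive complex 1 among the 38 fell, beside 38.8% of all genes. Bmi1, the subunit that stimulates the ubiquitin ligase and a known repressor of the Cdkn2a locus, measured 8.77, 8.94 and 8.66 in Hdac3 deleted samples, against 9.17, 9.28 and 9.43 in wild type. It fell by 0.50 (SE 0.097, adjusted p = 0.0035), and its second probe set fell by 0.74. The ligases Rnf2 and Ring1 differed by -0.36 (adjusted p = 0.00312) and -0.24 (adjusted p = 0.0125). After cyclic loess neither passed (-0.15 and -0.06), and Ring1 did not pass without Hdac3 deleted replicate 1 (adjusted p = 0.0502).

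Among the demethylases, Kdm5b showed the largest difference of all 38 genes on their brightest probe sets. It encodes an enzyme that removes methyl groups from lysine 4 of histone H3, and measured 7.68, 7.60 and 7.60 in Hdac3 deleted samples, against 8.88, 8.84 and 8.77 in wild type. The groups were far apart, and Kdm5b fell by 1.20 (SE 0.056, adjusted p = 2.64e-06), or 2.3-fold, with 2.75% of all genes lower still. The CD3 genes fell by 1.47 in the same samples. A second Kdm5b probe set fell by 0.87. Its paralogue Kdm5a had overlapping groups and differed by -0.12 (95% confidence interval -0.29 to 0.04, adjusted p = 0.166), by -0.28 past the threshold with median centring, and by 0.07 after cyclic loess. Kdm5b minus Kdm5a changed by -1.08 between the groups, without overlap (exact permutation p = 0.1).

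Kdm1a (LSD1), a demethylase of the CoREST corepressor complex, measured 9.18, 9.18 and 9.19 in Hdac3 deleted samples, against 9.59, 9.55 and 9.70 in wild type. It fell by 0.43 (SE 0.059, adjusted p = 0.000636) and its second probe set by 0.52. Kdm3a, which removes methyl groups from lysine 9 of histone H3, averaged 9.50 ± 0.069 in Hdac3 deleted samples and 9.86 ± 0.068 in wild type, and fell by 0.35 (adjusted p = 0.00262), but did not pass after cyclic loess (-0.15).

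**Figure D3:**
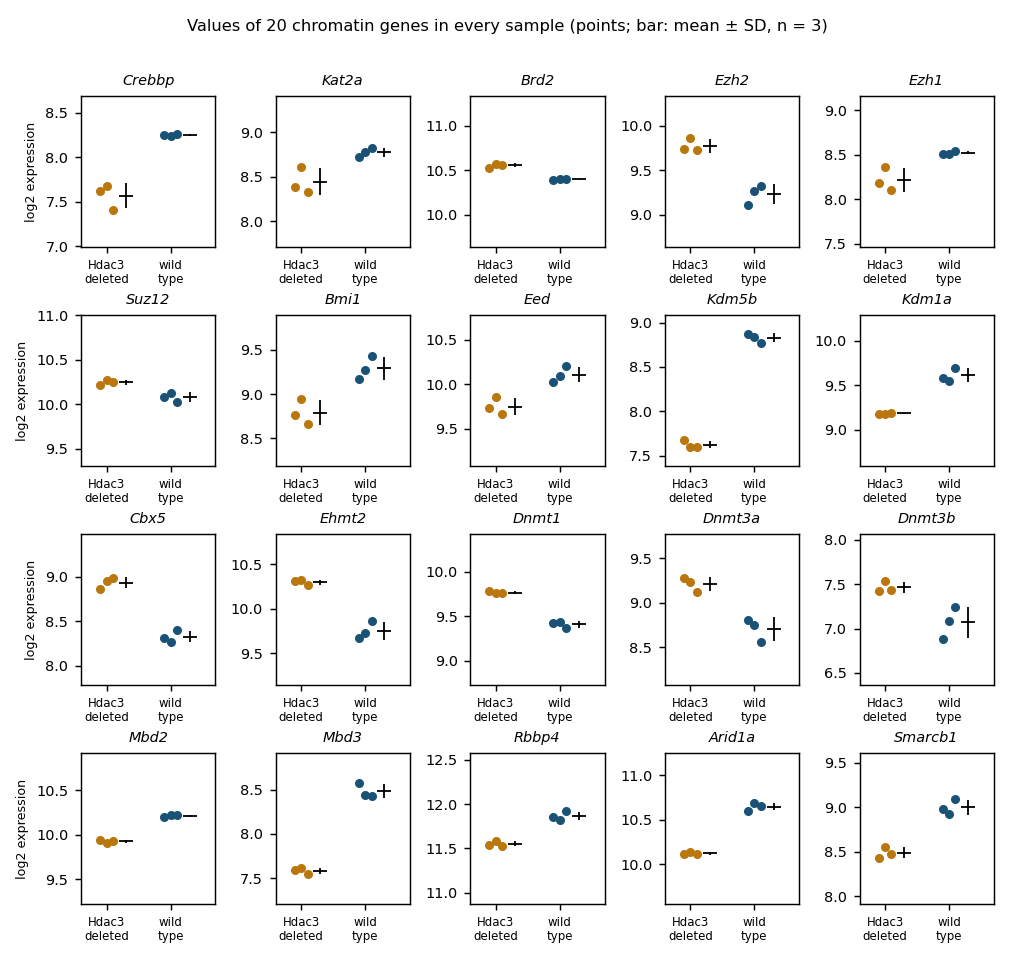
Log2 expression of 20 chromatin genes in each of the 3 Hdac3 deleted and 3 wild type samples, with mean ± SD beside the points. All panels span the same 1.7 log2 units but start at different levels. The gap between groups is widest in Kdm5b, and the 3 Dnmt genes, Ezh2, Ehmt2 and Cbx5 are higher in the Hdac3 deleted samples.

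Of the 5 genes of H3K9 methylation and heterochromatin measured among the 38, 2 rose and none fell on the deposited scale. On that scale 22.4% of all genes rose and 38.8% fell. Cbx1 (HP1 beta), outside the 38 and named after its value was seen, fell. Ehmt2 (G9a), a methyltransferase for lysine 9 of histone H3 in euchromatin, measured 10.31, 10.32 and 10.27 in Hdac3 deleted samples, against 9.67, 9.72 and 9.86 in wild type. It rose by 0.55 (SE 0.065, adjusted p = 0.000298), or 1.46-fold, while a dimmer second probe set, at 6.66 in Hdac3 deleted samples and 6.59 in wild type, differed by 0.07 (adjusted p = 0.555 over all probe sets). Cbx5 (HP1 alpha), which binds that methyl mark, measured 8.86, 8.96 and 8.98 in Hdac3 deleted samples, against 8.31, 8.27 and 8.40 in wild type. It rose by 0.61 (SE 0.062, adjusted p = 0.000128), the largest rise among the 38. This rests on the brightest of 5 probe sets, since the mean of all 5 differed by 0.05 (adjusted p = 0.623). The other 4 were dim, with group means of 4.75 to 6.04 in Hdac3 deleted samples and 5.15 to 5.64 in wild type.

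Setdb1, the methyltransferase that silences endogenous retroviruses, Trim28 (KAP1), which recruits it, and Cbx3 (HP1 gamma) did not pass. They differed by 0.09 (adjusted p = 0.21), -0.01 (0.833) and 0.12 (0.587), with 95% confidence intervals of -0.05 to 0.22, -0.15 to 0.12 and -0.31 to 0.54. Median centring gave Setdb1 -0.07, Trim28 -0.17, past the threshold, and Cbx3 -0.04, and cyclic loess gave Setdb1 0.26 and Trim28 0.19, both past the threshold. The direction of Trim28 thus depends on the scaling. The 3 Cbx3 values in Hdac3 deleted samples, 6.46, 6.10 and 6.82, were spread more widely than those of any other member.

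The DNA methyltransferase genes Dnmt1, Dnmt3a and Dnmt3b all rose, beside 22.4% of all genes. Dnmt3a measured 9.28, 9.23 and 9.13 in Hdac3 deleted samples, against 8.81, 8.75 and 8.56 in wild type, a rise of 0.51 (SE 0.083, adjusted p = 0.00152). Dnmt3b measured 7.42, 7.54 and 7.43 in Hdac3 deleted samples, against 6.89, 7.08 and 7.24 in wild type. It rose by 0.39 (adjusted p = 0.0104), with no overlap but a narrow gap, and did not pass with median centring (0.23, adjusted p = 0.0543). Dnmt1, the maintenance enzyme of dividing cells, averaged 9.77 ± 0.012 in Hdac3 deleted samples and 9.41 ± 0.04 in wild type, and rose by 0.35 (SE 0.051, adjusted p = 0.000801), with a second probe set at 0.49. Among genes outside the 38, Uhrf1, which brings Dnmt1 to newly replicated DNA, measured 8.62, 8.67 and 8.55 in Hdac3 deleted samples and 7.06, 6.96 and 7.01 in wild type, a rise of 1.60 (adjusted p = 8.11e-07). Hells, a remodeller needed for DNA methylation, rose by 1.29 (adjusted p = 7.68e-05). Cell cycle genes rose by a median of 1.5 beside them, and their part in these rises was not tested.

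The methyl-CpG binding gene Mbd2 went the other way. It measured 9.94, 9.91 and 9.93 in Hdac3 deleted samples, against 10.20, 10.22 and 10.22 in wild type, and fell by 0.28 (adjusted p = 0.00194). The replicates were tight and did not overlap, but the fall was 0.11 below the median of all genes and did not pass after cyclic loess (-0.08). A second Mbd2 probe set fell further, by 0.80.

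Of the 5 NuRD genes among the 38, Mbd3 and Rbbp4 fell and 3 did not pass. Of all genes, 38.8% fell. Mbd3 encodes the subunit that is exchanged with Mbd2 and helps hold the deacetylase and remodelling modules of the complex together. Mbd3 measured 7.59, 7.62 and 7.55 in Hdac3 deleted samples, against 8.57, 8.44 and 8.43 in wild type, and fell by 0.89 (SE 0.061, adjusted p = 1.77e-05), or 1.86-fold. Mbd2 minus Mbd3 changed by 0.61 between the groups, without overlap (exact permutation p = 0.1). The histone chaperone gene Rbbp4 measured 11.54, 11.58 and 11.53 in Hdac3 deleted samples, against 11.85, 11.82 and 11.92 in wild type. It fell by 0.31 (adjusted p = 0.00196), did not pass after cyclic loess (-0.10), and its 2 dimmer probe sets fell by 0.61 and 1.14.

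The remodelling ATPase Chd4, the Mta2 subunit and the chaperone Rbbp7 had overlapping groups and did not pass. They differed by 0.05 (95% confidence interval -0.15 to 0.25, adjusted p = 0.63), 0.04 (-0.11 to 0.19, 0.598) and -0.09 (-0.24 to 0.05, 0.221). After cyclic loess Chd4 and Mta2 were higher by 0.25 and 0.23 past the threshold and Rbbp7 was at 0.12, while with median centring Chd4 and Mta2 were at -0.11 and -0.12 and Rbbp7 was lower by 0.25 past the threshold. Rbbp7 minus Rbbp4 changed by 0.22 without overlap (exact permutation p = 0.1).

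Of the 7 SWI/SNF and ISWI genes among the 38, 4 fell and 3 did not pass on the deposited scale. On that scale 38.8% of all genes fell. Arid1a, the largest subunit of the BAF form and a frequent target of mutation in cancer, measured 10.12, 10.14 and 10.11 in Hdac3 deleted samples, against 10.60, 10.68 and 10.66 in wild type. It fell by 0.52 (SE 0.051, adjusted p = 0.000108), and its second probe set by 0.47. The core subunit gene Smarcb1 measured 8.43, 8.55 and 8.48 in Hdac3 deleted samples, against 8.98, 8.92 and 9.09 in wild type, and fell by 0.51 (SE 0.0665, adjusted p = 0.000475), with its second probe set at -0.49. Arid1a and Smarcb1 fell in each of their probe sets, and under each scaling.

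The ATPase gene Smarca4 (BRG1) had overlapping groups, at 9.47 ± 0.026 in Hdac3 deleted samples and 9.46 ± 0.036 in wild type, a difference of 0.0061 (95% confidence interval -0.12 to 0.13, adjusted p = 0.923) that was -0.15 with median centring and 0.20 after cyclic loess, past the threshold in each. The ISWI ATPase Smarca5 differed by -0.08 (-0.21 to 0.05, adjusted p = 0.222), by -0.24 past the threshold with median centring, and by 0.13 after cyclic loess. The scaffold gene Smarcc1 differed by 0.05 (-0.11 to 0.21, adjusted p = 0.538), by -0.11 with median centring and by 0.24 past the threshold after cyclic loess. Smarcd1 fell by 0.27 (adjusted p = 0.00454) but did not pass after cyclic loess (-0.10). Smarce1 fell by 0.15 (adjusted p = 0.0337), which is close to the median of all genes. It was at 0.04 after cyclic loess and did not pass when any 1 sample was left out (adjusted p 0.0509 to 0.111).

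Members with several probe sets did not always give the same size of difference. Of the 38 genes, 29 had more than 1 probe set, with 48 sets besides the brightest, and 40 of these lay above the background range in at least 1 group. Among the 40, 31 had the direction of the brightest set and 9 the opposite direction. The gap between a gene's brightest set and another was tested over all 7987 such pairs on the array. It passed in 13 of the 40 (32.5%), in 10 genes, beside 29.1% of all pairs. Unlike the 40, all pairs include sets inside the background range in both groups, so these shares are not like for like.

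The widest gap among the 40 was in Cbx5, where a dim set averaged 4.75 in Hdac3 deleted samples, within the range of the control probe sets, and 5.25 in wild type. It fell by 0.51 while the brightest set rose (limma adjusted p of the gap 0.000218), and was the only set to pass in the opposite direction. In Smarce1 the second set averaged 7.68 in Hdac3 deleted samples and 8.89 in wild type and fell by 1.21, against -0.15 for the brightest set (limma adjusted p of the gap 0.000143). In Dnmt3a the 5 sets ran from -0.12 to 0.81, and the brightest differed from 2 of the others. The second set of Smarcc1 rose by 0.45 (adjusted p = 0.00366 over all probe sets), that of Smarca4 rose by 0.20 (0.0421), and another of Smarca5 fell by 0.30 (0.0134), where the brightest set of each did not pass. Where the sets lie in the transcripts is not known here, so transcript ends or forms cannot be told apart from unequal probe response.

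**Figure D4:**
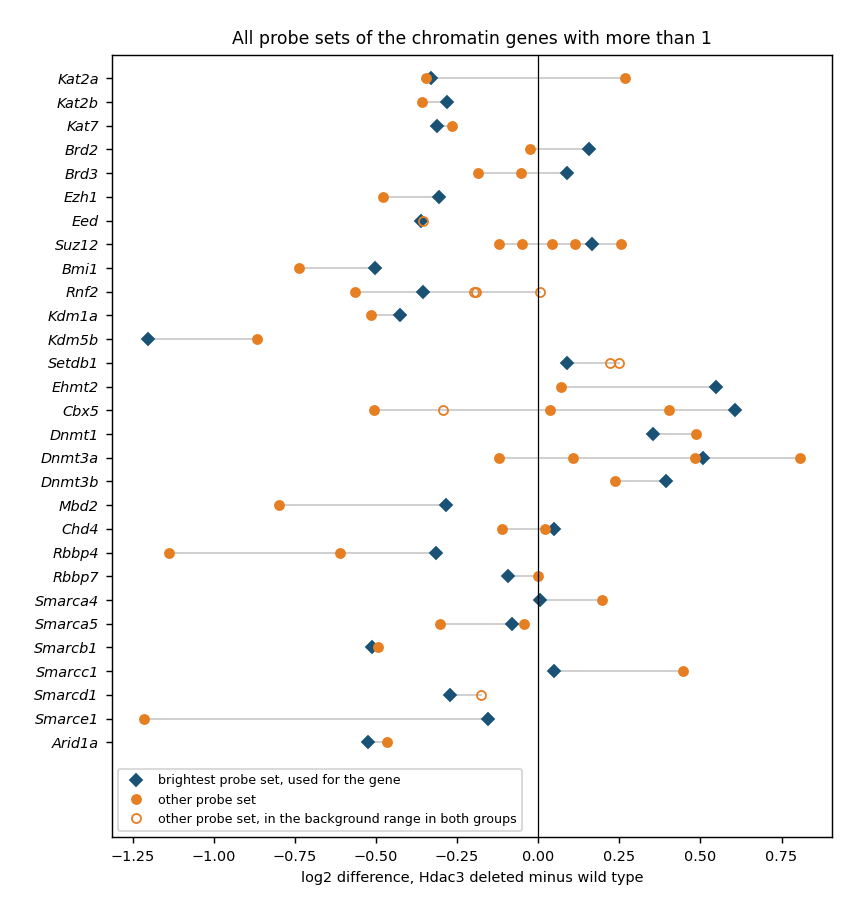
Log2 difference, Hdac3 deleted minus wild type, of every probe set of the 29 chromatin genes with more than 1. Diamonds are the brightest set, which stands for the gene, filled circles the other sets, and open circles sets inside the background range in both groups. Sets of Arid1a, Smarcb1 and Kdm1a lie close together, while those of Smarce1, Cbx5, Dnmt3a and Rbbp4 are spread.

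Unequal movement of related genes was examined in 9 pairs, since Ep300 was not measured. In 4 pairs the groups did not overlap, and each had the smallest p possible (exact permutation p = 0.1, 0.225 after adjustment over the 9 pairs). These were the pairs Ezh2 and Ezh1, Kdm5b and Kdm5a, Mbd2 and Mbd3, and Rbbp7 and Rbbp4. In the other 5 the log ratio overlapped between the groups. Kat2a minus Kat2b changed by -0.05, Brd2 minus Brd3 by 0.07, Cbx5 minus Cbx3 by 0.49, Dnmt3b minus Dnmt3a by -0.11 and Rnf2 minus Ring1 by -0.12 (exact permutation p from 0.2 to 0.7). The groups did not overlap in 67.4% of all single genes, and the share among other gene pairs of the array was not counted.

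Of 129 further genes listed by family, 97 were measured, 12 rose, 58 fell and 27 did not pass, so 59.8% fell, beside 38.8% of all genes. The difference between these shares was not tested. Their median difference was -0.31, beside -0.17 over all genes. Of the 97, 9 were no brighter than the control probe sets in either group, as were 3553 of all 12393 genes. With the dimmest 33.3% of probe sets left out, 4120 of 8783 genes fell in all. In that setting 18.8% of the called further genes were higher, beside 39.3% of all called genes. Falls of the further genes outnumbered their rises under each scaling, with 9 rises and 77 falls after median centring and 19 and 41 after cyclic loess. Other Polycomb genes fell in 12 of 14, with a median of -0.52, other readers in 6 of 7 and other histone demethylases in 8 of 11. In the list of other histone methyltransferases 12 of 21 fell, and among other remodellers 11 of 21. The methyltransferase list also holds genes that encode no such enzyme, among them Cbx1, Ash2l and Dpy30. The remaining 3 families were mixed, and their genes are named after their values were seen. Of 10 genes in the list of other acetyltransferases, which also holds partner subunits such as Jade1 and Brpf1, 4 fell and 3 rose. Kat6a, Kat6b, Ncoa3 and Jade1 fell, and Hat1, Brpf1 and Ncoa1 rose. Of 8 other NuRD and CHD genes, 3 fell (Mta3, Chd1 and Chd6) and 1 rose (Chd7). Of 5 other DNA methylation genes, 2 fell (Tet1 and Mbd1) and 2 rose (Uhrf1 and Mbd4), with Tet1 no brighter than the control probe sets in either group.

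Past 2-fold, Uhrf1 and Hells were higher and 4 of these further genes were lower. Mllt3 (AF9), a reader of acylated histones that recruits the elongation machinery, measured 6.62, 7.25 and 7.17 in Hdac3 deleted samples, against 9.28, 9.34 and 9.18 in wild type, and fell by 2.26 (adjusted p = 2.18e-05). This exceeded the fall of the CD3 genes. The others belong to Polycomb. Cbx6 and Cbx2, chromodomain subunits of Polycomb repressive complex 1, fell by 1.23 (adjusted p = 2.76e-06) and 1.14 (2.72e-06), and Phf1, an accessory subunit of Polycomb repressive complex 2, fell by 1.22 (2.76e-06). Cbx2 was under 2-fold after cyclic loess (-0.96) and when its probe sets were averaged (-0.78). In each of the 4, the 3 Hdac3 deleted values lay more than 1 log2 unit below the 3 wild type values.

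**Figure D5:**
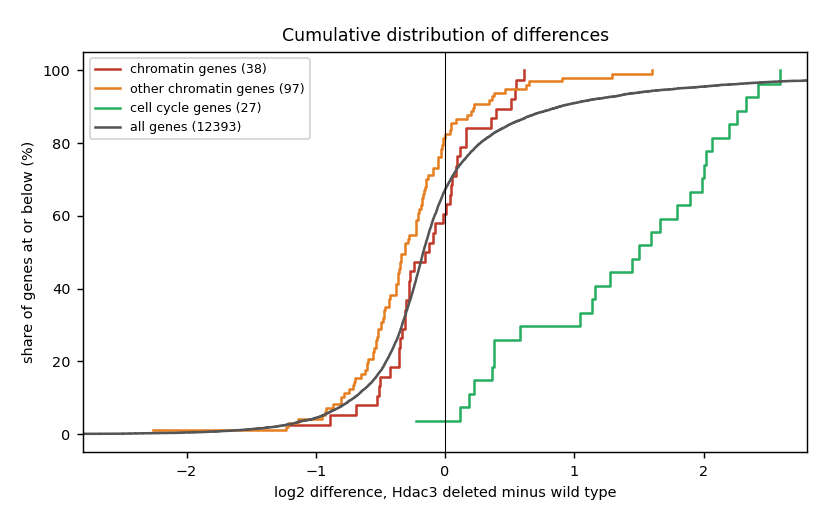
Cumulative share of genes at or below each log2 difference, Hdac3 deleted minus wild type, for the 38 chromatin genes, 97 other chromatin genes, 27 cell cycle genes and all 12393 genes. The axis stops at 2.8 on either side, and some of all genes lie beyond it. The chromatin genes run close to all genes but lack their upper tail, the other chromatin genes lie to the left, and the cell cycle genes lie to the right.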

How the data were processed

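RNA of 3 Hdac3 deleted and 3 wild type samples was measured on Affymetrix Mouse430a arrays. The deposited table holds log2 expression per probe set after the authors' robust multiarray average, made with MAYDAY 2.12 per the series design text. The precision is limited by the 3 arrays a group. Of 22690 probe sets, 64 controls were removed, and 20380 carried exactly 1 symbol in the platform annotation, 691 several and 1555 none. The probe set with the highest mean stood for each of 12393 genes. The range of 27 bacterial control probe sets served as background. Groups were compared with limma 3.58.1 in R 4.3.3 (2-sided, Benjamini-Hochberg over all genes), and every adjusted p below 0.05 counts as passing. Related genes were compared by exact permutation tests. The fit was tested on simulated data with 200 of 12393 genes changed. It recovered 6% of changes of 0.25, 64% of 0.5, 84% of 1 and 100% of 2 log2 units. In the samples 61.2% of all genes passed, so these shares need not apply there. Members and lists were chosen with earlier results of these data known. Sample values are given for up to 2 rises and 2 falls per role, all members that did not pass are named, and further genes are named past 2-fold. Other scalings, priors, probe set rules, a replicate block and samples left out were tried. The comparison of probe sets within a gene was added after seeing the data.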

Additional observations from a re-analysis of the deposited data

How the results depend on the processing

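Of the differences of single genes, 645 alternative values kept direction and side of the threshold, 38 lost the threshold, 11 gained it and 24 changed sign. Of the counts and paralogue differences, 209 alternative values stayed, 8 moved and 4 changed sign. The cause was not tested except where the setting itself shows it. Scaling moved most. Median centring gave 7229 genes lower in all, 5 chromatin genes risen and 2 past 2-fold, and turned Brd2 to -0.0021, Brd3 to -0.071, Setdb1 to -0.072, Cbx3 to -0.043, Mta2 to -0.12, Chd4 and Smarcc1 to -0.11 and Smarca4 to -0.15. Cyclic loess gave 2912 genes lower in all, 15 chromatin genes risen, 7 fallen and 19 other chromatin genes risen, and turned Kdm5a to 0.070, Trim28 to 0.19, Rbbp7 to 0.12, Smarca5 to 0.13 and Smarce1 to 0.038. Quantile normalization turned Cbx3 to -0.032 and Smarca4 to -0.013. Averaging all sets of each gene turned Brd3 to -0.050, Chd4 to -0.014, Kat2a minus Kat2b to 0.18 and Cbx5 minus Cbx3 to -0.067. Without probe sets ending in _x_at or _s_at, which can match several transcripts, Suz12 was -0.12 and Kat2a minus Kat2b 0.029. At 1.5-fold, 4 chromatin genes passed, against 27.3% of all genes. With 1 sample left out, 6 to 7 chromatin genes rose and 17 to 18 fell, beside 2540 to 2650 and 4266 to 4579 of all genes. In these fits Cbx3 ran from -0.062 to 0.30, Trim28 from -0.046 to 0.016 and Chd4 from -0.028 to 0.11. Smarca4 ran from -0.0088 to 0.026, Smarcc1 from -0.0062 to 0.098 and Dnmt3b minus Dnmt3a from -0.26 to 0.046. The replicate block, for numbers that did not pair the samples (deviations of same-numbered samples correlated at 0.089, 0.065 and -0.20), gave 6 chromatin genes risen and 18 fallen, with Brd2, Suz12 and Smarce1 not passing, and 2631 and 4657 of all genes. Ezh2, Ehmt2, Dnmt1, Dnmt3a, Crebbp, Bmi1, Kdm1a, Kdm5b, Mbd3, Smarcb1 and Arid1a passed in the same direction under all 16 alternatives run. The share of all genes that did so was not counted.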
